A study of Mus musculus with 8 samples.

Results

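The genes of the BCL2 family that decide between survival and death of a cell were examined in multipotent progenitors of wild type and FLT3-ITD mice. They were taken by name as 10 genes: Bcl2, Bcl2l1, Bcl2l2 and Mcl1, which protect cells, and Bax, Bak1, Bcl2l11, Bid, Bad and Bmf, which promote death. Every probe set that the platform annotation gives to exactly 1 of these genes was used, which came to 34 probe sets of 9 genes, out of 45037 probe sets in the table besides the controls. Bax matched no probe set in the annotation used and was not analysed here. Each gene had 2 to 6 probe sets. The cells came from bone marrow of female C57BL6 mice aged 8 to 10 weeks and were sorted as lacking lineage markers and CD150 while carrying Sca-1, c-Kit and CD48. Of the 8 samples, 4 were wild type and 4 carried FLT3-ITD, an internal tandem duplication that makes the receptor tyrosine kinase FLT3 signal without its ligand. How the allele was made, whether 1 or both copies carried it and how many mice gave a sample are not stated in the labels. Samples are numbered 1, 2, 3 and 037 in each genotype, the last being labelled as a further number 1, so it may not be independent of replicate 1.

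Proteins of this family meet at the outer mitochondrial membrane. BAX and BAK1 form the pores that release cytochrome c, the pro-survival proteins BCL2, BCL-XL (Bcl2l1), BCL-W (Bcl2l2) and MCL1 hold them back, and the BH3-only proteins BIM (Bcl2l11), BID, BAD and BMF bind the pro-survival proteins or activate the pore formers. MCL1 is needed for the survival of blood stem and progenitor cells, BCL2 is prominent in lymphoid and early progenitors, and BIM is a main trigger of death after cytokine withdrawal. Growth factor receptors act on the family largely at the protein level, through phosphorylation and turnover, which RNA levels do not show.

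The promoters of the genes whose probe sets differed most between genotypes, Bcl2 and Bcl2l11, are given as the 250 bases before the transcription start, 5′ to 3′, from RefSeq on GRCm38.p6. The Bcl2 window is chr1:106714291-106714540, minus strand, and the Bcl2l11 window, the first of 2 listed for that gene, is chr2:128125788-128126037, plus strand. Capitals mark a match to the FOXO motif.
Bcl2: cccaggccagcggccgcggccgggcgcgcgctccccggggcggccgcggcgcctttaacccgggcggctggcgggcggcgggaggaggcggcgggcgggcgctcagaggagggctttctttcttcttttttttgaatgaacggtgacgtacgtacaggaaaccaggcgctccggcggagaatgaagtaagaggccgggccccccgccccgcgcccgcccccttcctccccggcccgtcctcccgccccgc
Bcl2l11: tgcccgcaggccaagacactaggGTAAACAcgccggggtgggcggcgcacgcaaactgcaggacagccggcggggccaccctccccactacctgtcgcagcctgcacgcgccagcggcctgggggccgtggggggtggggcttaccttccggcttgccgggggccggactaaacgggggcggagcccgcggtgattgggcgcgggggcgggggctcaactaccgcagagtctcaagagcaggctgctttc

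The windows were searched on both strands for the STAT motif TTCNNNGAA, which is its own reverse complement, and for the FOXO motif TGTTTAC; these motifs do not overlap each other. STAT5 is a factor that FLT3-ITD is known to activate, and FOXO factors are known to drive Bcl2l11 when growth factor signals are absent. All 10 genes had a window, 16 in all with alternative starts. None of the 16 held the STAT letters, against 7.02% of 32851 promoter windows of all genes. The FOXO letters occurred in 1 of the 16, as GTAAACA starting at position -227 of the Bcl2l11 window above, against 3.17% of all windows. By composition the Bcl2 window was 74.8% G and C and the Bcl2l11 window 72%, with a median of 52.4% over all windows.

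Values below are log2 RMA values per probe set. RMA is a method that corrects background, brings arrays to 1 distribution and summarises the probes of a set. Array medians lay between 5.98 and 6.05, so a value near 6 is in the middle of all probe sets. Probe set names ending in _a_at detect several transcripts of a gene, and those ending in _s_at or _x_at can also bind other transcripts. Levels of different probe sets are not comparable with each other. A probe set was tested if 4 or more arrays had it above their median. Each difference is FLT3-ITD less wild type in log2 units, given ± its standard error (SE) from limma, a linear model across all 19211 tested probe sets, and adjusted p-values are Benjamini-Hochberg values over all of these, with a threshold of 0.05. FLT3-ITD replicate 1 stood apart from the other arrays over the tested probe sets, with correlations of 0.872 to 0.902 against 0.910 to 0.958 among the others. As a measure of RNA quality, the Gapdh control read higher at its 3′ end than at its 5′ end by 2.99 in FLT3-ITD replicate 037 and by 1.82 to 2.29 on the other arrays. Flt3 itself read 10.54 ± 0.11 for wild type and 9.37 ± 0.39 for FLT3-ITD (SD, n = 4 each; limma adjusted p = 0.0533), a level that does not check the labels, since the duplication need not alter the probe target.

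No BCL2 family gene differed between genotypes past the threshold. Of the 34 probe sets 28 passed the filter, and 0 of these 28 were called by limma, against 0.416% of all tested probe sets (80 of 19211). The smallest adjusted p among them was 0.183. At an unadjusted p under 0.05 there were 2 of 28 (7.14%), Bcl2 1443837_x_at, higher in FLT3-ITD, and Bcl2l11 1426334_a_at, lower, against 9.06% of all tested probe sets. Wild type and FLT3-ITD values were without overlap for 3 of 28 (10.7%), each lower in FLT3-ITD, against 2.69% of all tested probe sets, and for 0 of 28 in the direction of higher values, against 3.33%. The 3 were Mcl1 1437527_x_at and 1448503_at, which share 1 gene, and Bcl2l11 1426334_a_at, which passed the filter mainly through wild type. Positive differences were 13 of 28 (46.4%), against 51.3% of all tested. The median difference was -0.0066 over the 28 and 0.0088 over all tested probe sets, and the median absolute difference 0.14 against 0.17. The members that reached an absolute difference over 1 were 2 of 28 (7.14%), Bcl2 1443837_x_at and Bcl2l11 1426334_a_at, against 1.91% of all tested. The 4-against-4 design limits this: simulated differences of 0.5 were recovered in 4% of cases, of 1 in 34%, of 2 in 72% and of 3 in 92%. Fewer cells of a type and less RNA per cell cannot be told apart in such bulk samples.

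**Figure D1:**
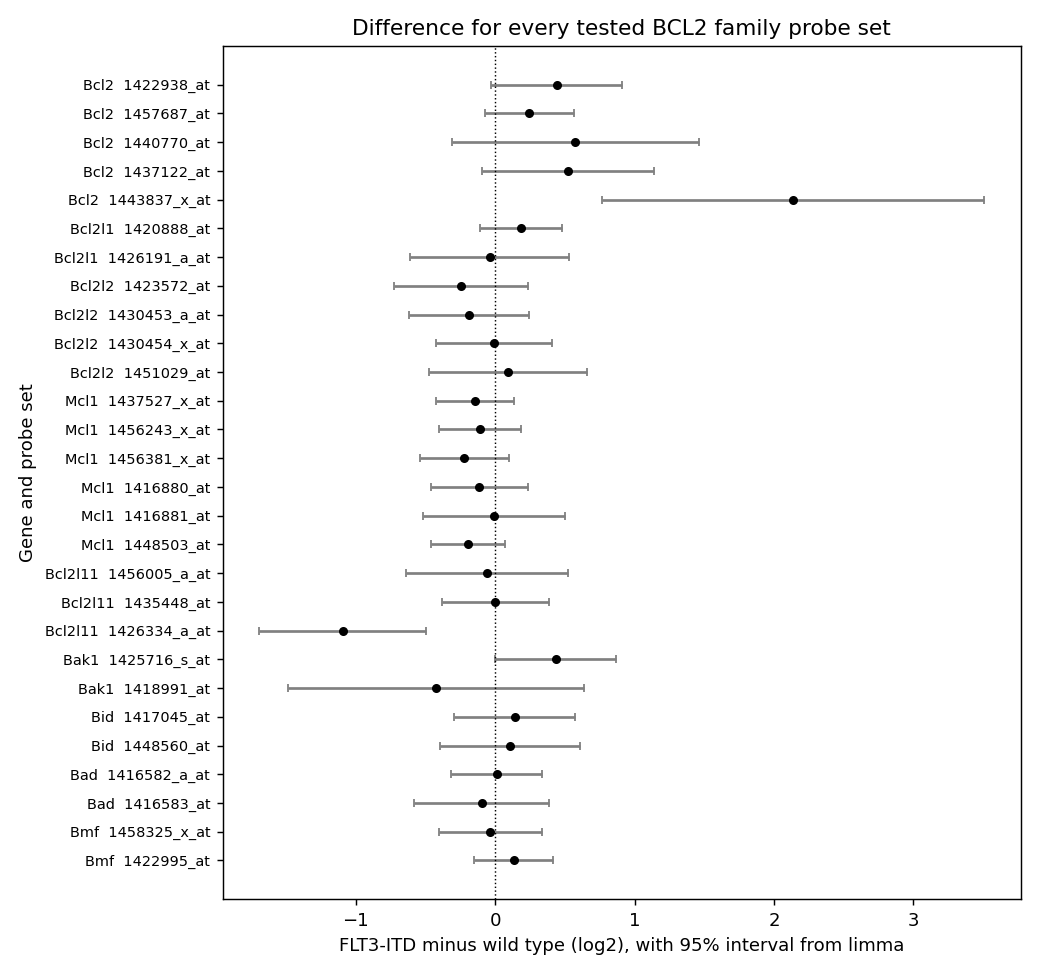
Difference between FLT3-ITD and wild type (log2, horizontal axis) for each of the 28 tested BCL2 family probe sets, with 95% intervals from limma that are not adjusted for the number of probe sets. The intervals of Bcl2 1443837_x_at, 0.77 to 3.51, and Bcl2l11 1426334_a_at, -1.69 to -0.50, leave out 0, and neither adjusted p is under 0.05.

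Bcl2, the founding pro-survival gene, read higher in FLT3-ITD on all 5 of its probe sets, by 0.25 to 2.14, and none passed the test. These probe sets read 1 gene on the same 8 arrays, so they are not 5 separate pieces of evidence. Nor did all of them follow each other. Pairs with 1440770_at correlated over the 8 arrays at r of -0.15 to 0.46, and the other pairs at 0.48 to 0.81. The brightest, 1422938_at, read 11.59, 11.40, 11.44 and 11.80 in wild type replicates 1, 2, 3 and 037, and 11.78, 11.89, 11.75 and 12.59 in the FLT3-ITD replicates in the same order. Wild type replicate 037 lay among the FLT3-ITD values, and FLT3-ITD replicate 037 lay well above all others. The means were 11.56 ± 0.18 and 12.00 ± 0.39 (SD, n = 4 each), a difference of 0.44 ± 0.21 (limma adjusted p = 0.581; 95% interval -0.027 to 0.91; exact two-sided permutation p = 0.0857). Without FLT3-ITD replicate 037, the array with the highest Gapdh difference, it was 0.25 ± 0.15 (limma adjusted p = 0.690). The part of RNA quality in this value was not tested. As a mean over the 5 probe sets, Bcl2 differed by 0.78 ± 0.20 (limma adjusted p = 0.139). That mean is raised by 1443837_x_at, which differed by 2.14, against 0.25 to 0.57 for the others.

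The largest difference among the 28 tested probe sets was that of Bcl2 1443837_x_at. It read 6.20, 4.86, 5.61 and 8.21 in wild type replicates 1, 2, 3 and 037, and 8.13, 8.32, 8.22 and 8.77 in FLT3-ITD. The FLT3-ITD arrays lay close together, wild type replicates 1, 2 and 3 lay below all of them, and wild type replicate 037 read as high as FLT3-ITD. The means of 6.22 ± 1.44 and 8.36 ± 0.29 (SD, n = 4 each) differed by 2.14 ± 0.61, which is 4.40-fold (limma adjusted p = 0.285; exact permutation p = 0.0571). Leaving out wild type replicate 037 gave 2.80 ± 0.32 with an adjusted p of 0.0162, and leaving out both 037 samples, chosen after seeing the data, gave 2.66 with an adjusted p of 0.0466. The call therefore rests on how 1 wild type array is treated. This probe set passed the filter through the 4 FLT3-ITD arrays and wild type replicates 1 and 037, and its name marks it as open to binding other transcripts.

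The other 3 Bcl2 probe sets, 1457687_at, 1440770_at and 1437122_at, differed by 0.25 ± 0.14, 0.57 ± 0.39 and 0.52 ± 0.27, with overlapping values and limma adjusted p of 0.659, 0.724 and 0.626. For 1457687_at the wild type arrays read 9.39 to 9.73 and the FLT3-ITD arrays 9.57 to 9.87. FLT3-ITD replicate 1, the array that stood apart, was the highest for 1440770_at at 10.57 and for 1437122_at at 8.33. Without it these differences were 0.22 and 0.32, and that of 1437122_at was also 0.32 without wild type replicate 2, its lowest array.

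**Figure D2:**
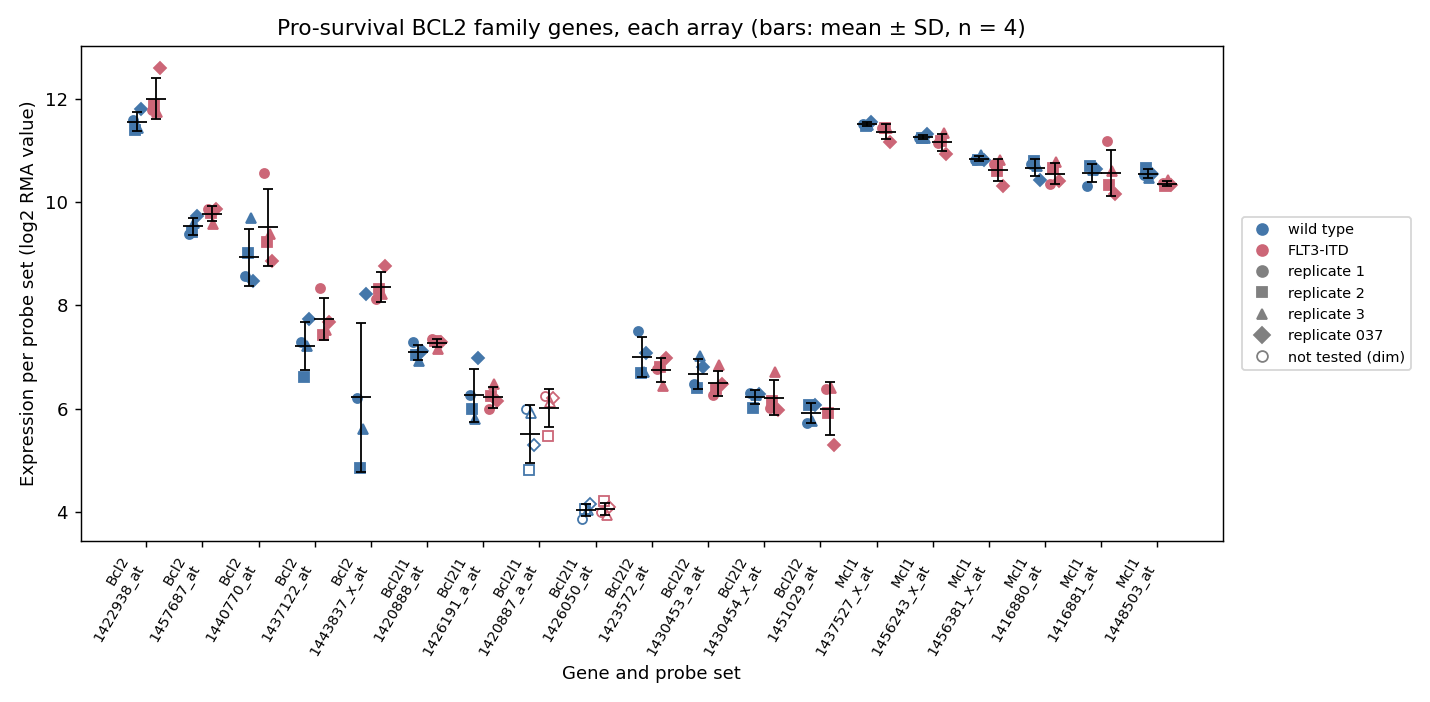
Log2 RMA value (vertical axis) of every probe set of the pro-survival genes on each array, wild type in blue and FLT3-ITD in red, with symbols for replicate numbers and bars for mean ± SD (n = 4). For Bcl2 1443837_x_at wild type replicate 037 at 8.21 sits with FLT3-ITD, and the Mcl1 probe sets vary little in wild type.

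Mcl1, whose protein turns over rapidly and which progenitors depend on, read lower in FLT3-ITD on all 6 probe sets, with differences from -0.22 to -0.0062, and none passed the test. The sign of 1416881_at, the smallest, turned under 7 of 18 alternatives. The brightest, 1437527_x_at, read 11.51, 11.48, 11.50 and 11.56 in wild type replicates 1, 2, 3 and 037, and 11.43, 11.43, 11.44 and 11.16 in FLT3-ITD. The genotypes did not overlap, and the difference of the means was -0.15 ± 0.12 (limma adjusted p = 0.786; exact permutation p = 0.0286, the smallest that 4 against 4 samples allow). FLT3-ITD replicate 037, the array with the highest Gapdh difference, was the lowest, and without it the difference was -0.077. Leaving out the same array took 1456243_x_at from -0.11 to -0.036 and 1456381_x_at from -0.22 to -0.12. The part of RNA quality in these values was not tested. Over the 8 arrays the brightest probe sets of Mcl1 and Bcl2 correlated at r = -0.87, the most extreme value among all pairs of member genes. FLT3-ITD replicate 037 weighs heavily in this value. It was the lowest array for Mcl1 and, at 12.59 with the next at 11.89, the highest for Bcl2. The correlation without it is not given here. For 1448503_at the wild type arrays read 10.46 to 10.67 and the FLT3-ITD arrays 10.32 to 10.42, also without overlap, a difference of -0.19 ± 0.12 (limma adjusted p = 0.680; 95% interval -0.46 to 0.074). The 3 probe sets ending in _x_at followed each other over the 8 arrays, with r of 0.89 to 0.92, so they are not separate evidence.

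Bcl2l1 encodes BCL-XL, a pro-survival protein important in red cell precursors and a known STAT5 target. Its brightest probe set, 1420888_at, read 7.28, 7.04, 6.93 and 7.13 in wild type replicates 1, 2, 3 and 037, and 7.34, 7.32, 7.16 and 7.29 in FLT3-ITD. Wild type replicate 1 lay among the FLT3-ITD values. The difference was 0.18 ± 0.13 (limma adjusted p = 0.741; 95% interval -0.11 to 0.48; exact permutation p = 0.0571). The other tested probe set, 1426191_a_at, gave -0.037 ± 0.25, with wild type replicate 037 highest of all arrays at 6.98. Probe sets 1420887_a_at and 1426050_at did not pass the filter. The former averaged 5.51 ± 0.56 and 6.02 ± 0.36 (SD, n = 4 each), and the latter read 3.87 to 4.21 over all arrays.

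Bcl2l2, which encodes BCL-W, was close to the array median. Its 4 probe sets differed by -0.25 to 0.093 (limma adjusted p from 0.787 to 0.995). The brightest, 1423572_at, had means of 7.00 ± 0.38 for wild type and 6.75 ± 0.23 for FLT3-ITD (SD, n = 4 each), and the genotypes overlapped. The difference of -0.25 came to -0.076 when wild type replicate 1 was left out and to -0.14 when FLT3-ITD replicate 3 was. For 1430453_a_at it was -0.18, and -0.068 without wild type replicate 3, -0.11 without FLT3-ITD replicate 1 and -0.30 without FLT3-ITD replicate 3. Probe set 1451029_at passed the filter with 4 arrays above the median.

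Of the pore formers only Bak1 was measured here, and its 2 probe sets went opposite ways. Probe set 1425716_s_at read 8.68, 9.43, 9.28 and 9.17 in wild type replicates 1, 2, 3 and 037, and 9.39, 9.88, 9.53 and 9.50 in FLT3-ITD. FLT3-ITD replicate 1 lay just below wild type replicate 2, and the other FLT3-ITD arrays were above all of wild type. The difference was 0.43 ± 0.19 (limma adjusted p = 0.555; 95% interval -0.0029 to 0.87; exact permutation p = 0.0571). Without wild type replicate 1, the lowest array, it was 0.28. Probe set 1418991_at gave -0.42 ± 0.47 (limma adjusted p = 0.840), with FLT3-ITD values spread from 6.96 in replicate 037 to 9.13 in replicate 2. Its difference was 0.011 without FLT3-ITD replicate 037, -0.22 without wild type replicate 3, and -0.67 and -0.71 without FLT3-ITD replicates 1 and 2. As a mean over both probe sets Bak1 differed by 0.0048.

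Among the BH3-only genes, Bcl2l11 had the smallest p of the 28 tested probe sets, on 1 of its own 3. For 1426334_a_at the values were 6.34, 7.14, 6.88 and 7.64 in wild type replicates 1, 2, 3 and 037, and 5.69, 5.82, 6.26 and 5.86 in FLT3-ITD. Each FLT3-ITD array was below each wild type array, although FLT3-ITD replicate 3 came close to wild type replicate 1. The means were 7.00 ± 0.54 and 5.91 ± 0.24 (SD, n = 4 each), so FLT3-ITD read lower by a log2 difference of -1.09 ± 0.26, a ratio of 2.13 (limma adjusted p = 0.183; exact permutation p = 0.0286, the smallest possible). Over 18 alternatives the adjusted p ranged from 0.0746 to 0.421 and no call was made. The probe set passed the filter through the 4 wild type arrays and FLT3-ITD replicate 3, and 3 of the 4 FLT3-ITD values lay below the array medians.

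The brighter Bcl2l11 probe sets did not share this difference. Probe set 1456005_a_at read 10.49, 10.47, 9.56 and 10.06 in wild type replicates 1, 2, 3 and 037, and 9.54, 10.15, 10.36 and 10.29 in FLT3-ITD. The genotypes covered much the same range, and the difference was -0.059 ± 0.26 (limma adjusted p = 0.970; 95% interval -0.64 to 0.52). Probe set 1435448_at gave 0.0023 ± 0.17 (95% interval -0.38 to 0.39). Probe sets 1435449_at and 1456006_at lay below the array median on all arrays. As a mean over its 5 probe sets, Bcl2l11 differed by -0.29 (limma adjusted p = 0.493). BIM is made in several splice forms, and which of them each probe set detects was not analysed here.

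Bid, which links death receptors to mitochondria, differed by 0.14 ± 0.19 on 1417045_at and 0.10 ± 0.22 on 1448560_at (limma adjusted p = 0.874 and 0.929). Leaving out single samples gave 0.026 to 0.28 and -0.061 to 0.24 for these probe sets. For 1417045_at wild type read 7.00 to 7.54 and FLT3-ITD 7.01 to 7.78. Bad, a sensor of growth factor signals that kinases such as AKT and PIM keep inactive, read 8.72 to 8.94 in wild type and 8.67 to 9.08 in FLT3-ITD on 1416582_a_at, a difference of 0.011 ± 0.14 (limma adjusted p = 0.990). Its 95% interval was -0.32 to 0.34. Bmf, a BH3-only gene tied to the cytoskeleton, read 8.72 to 9.20 in wild type and 8.63 to 9.03 in FLT3-ITD on 1458325_x_at, a difference of -0.035 ± 0.16 (limma adjusted p = 0.972; 95% interval -0.41 to 0.34). On 1422995_at, near the array median, the difference was 0.13 ± 0.13. The remaining Bid and Bmf probe sets, 1447873_x_at and 1454880_s_at, did not pass the filter and differed by 0.027 and 0.030.

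**Figure D3:**
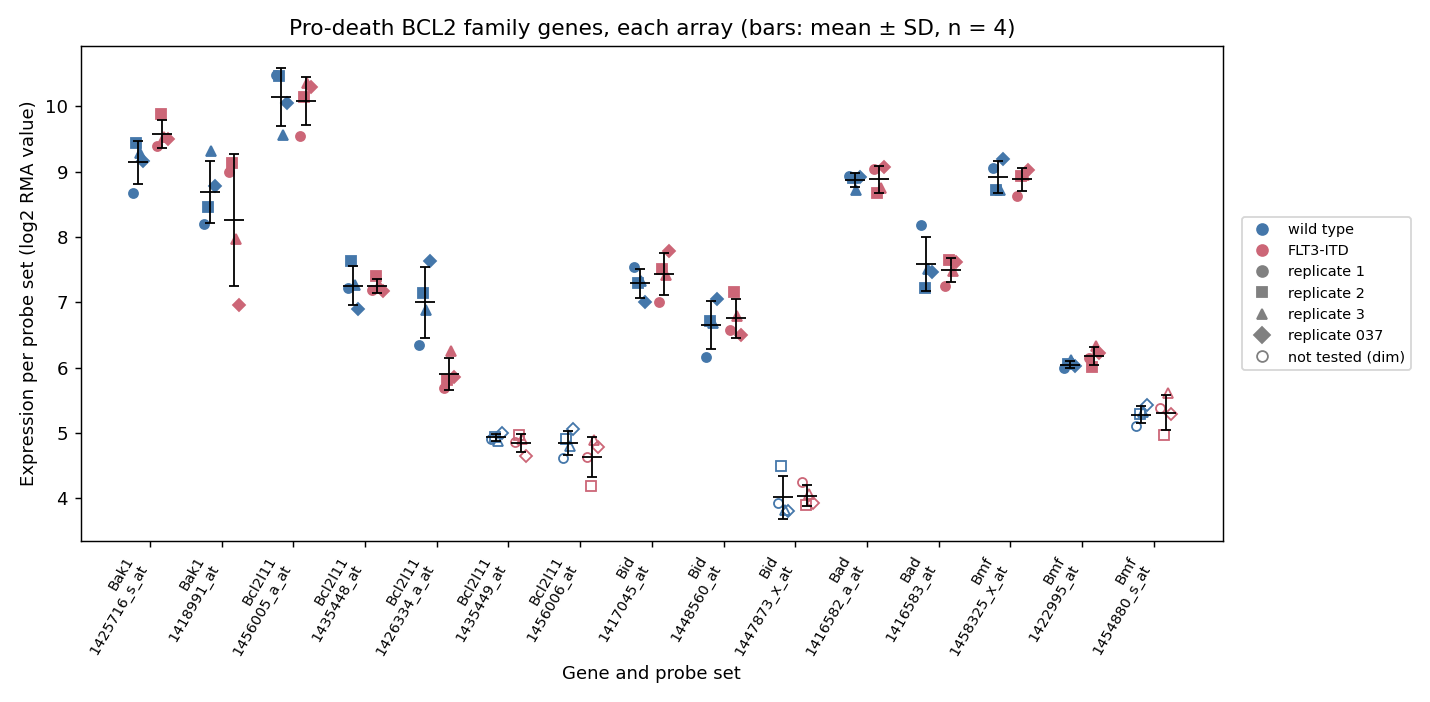
Log2 RMA value (vertical axis) of every probe set of the pro-death genes on each array, drawn with the same colours and symbols. The genotypes separate for Bcl2l11 1426334_a_at, at 6.34 or more in wild type and 6.26 or less in FLT3-ITD, and overlap for the other probe sets.

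The median spread between replicates was smaller over these probe sets than over all tested probe sets, while single probe sets lay on both sides. Among the lower wild type SDs were those of all 6 Mcl1 probe sets, at 0.18 or less, which come from 1 gene. The median SD over the 28 was 0.23 in wild type and 0.22 in FLT3-ITD, against 0.26 and 0.29 over all tested probe sets. The FLT3-ITD SD was the larger of the pair for 13 of 28, against 55.9% of all tested. The tightest were Mcl1 1437527_x_at in wild type, with an SD of 0.035, and Mcl1 1448503_at in FLT3-ITD, at 0.049. The widest were Bcl2 1443837_x_at in wild type, at 1.44, and Bak1 1418991_at in FLT3-ITD, at 1.02.

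The genes whose brightest probe set most resembled that of Bcl2 over the 8 arrays, by Pearson correlation among tested genes outside the family, were Selenos (r = 0.96), Psmc3 (0.96) and Nop56 (0.95). Without FLT3-ITD replicate 037 these were 0.92, 0.90 and 0.79. For Mcl1 they were Pcyt1a (0.97), Uqcc3 (0.95) and Slc30a9 (0.95), and 0.80, 0.76 and 0.87 without that array. For Bcl2l11 they were Tube1 (0.93), Macrod1 (0.93) and Tnfaip1 (0.92). Such values are the highest of 10763 genes over few arrays, and all share the same arrays and normalization.

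The rest of the death machinery was read from the brightest probe set of each gene, and again limma called no gene (0.511% of all tested genes were called, and 9.05% had an unadjusted p under 0.05). Over all tested genes 53.7% of differences were positive, the share beside which the counts of each list stand. The unadjusted p was under 0.05 for 3 genes of the 5 lists, Bnip3, Endog and Stat5a. Of the other BCL2 family genes 8 of 17 were tested, 0 were called, 3 were higher and 5 lower, and the median difference was -0.080, against 0.020 over all 10763 tested genes. Bnip3, a mitochondrial relative of the BH3-only genes induced by low oxygen, read 7.80 ± 0.14 for wild type and 7.41 ± 0.10 for FLT3-ITD (SD, n = 4 each), without overlap, a difference of -0.40 ± 0.13 (limma adjusted p = 0.377). Bcl2l14 gave -0.23 ± 0.14 (limma adjusted p = 0.697). The p53-induced BH3-only gene Bbc3, which encodes PUMA, differed by -0.023 ± 0.13, the neuronal BH3-only gene Hrk by 0.0076 ± 0.17 and the pore former relative Bok by -0.18 ± 0.18.

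Pmaip1, which encodes NOXA, the BH3-only protein that targets MCL1, did not pass the filter and is named because of its values. It read 3.66, 5.32, 3.58 and 4.03 in wild type replicates 1, 2, 3 and 037, and 7.68, 6.71, 6.78 and 4.32 in FLT3-ITD. FLT3-ITD replicates 1, 2 and 3 were above every wild type array, and replicate 037 was not. The means were 4.15 ± 0.81 and 6.37 ± 1.44 (SD, n = 4 each), a difference of 2.22 from dim wild type values (exact permutation p = 0.0571; limma adjusted p = 0.421 in the fit without the filter).

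Downstream of the pores, 11 of 13 genes of the mitochondrial death machinery were tested and 0 were called, with 9 positive and 2 negative differences and a median of 0.14. Endog, a mitochondrial nuclease, read 6.98 ± 0.15 for wild type and 7.47 ± 0.30 for FLT3-ITD (SD, n = 4 each), a difference of 0.49 ± 0.18 (limma adjusted p = 0.437), and Htra2, a protease released with cytochrome c, 0.32 ± 0.17 (limma adjusted p = 0.644). Cycs, cytochrome c itself, differed by 0.15 ± 0.18 and Casp9, the initiator caspase, by 0.14 ± 0.16. Of the inhibitors of apoptosis (IAP) 7 of 9 were tested, 0 called, with a median of 0.079. Birc2 gave -0.41 ± 0.19 (limma adjusted p = 0.561) and Naip6 0.66 ± 0.38 (limma adjusted p = 0.660). In the death receptor route 8 of 12 were tested, 0 called, 4 in each direction, with a median of 0.0093. There the adaptor gene Cradd gave 0.44 ± 0.21 and the kinase gene Ripk3 0.33 ± 0.25 (limma adjusted p = 0.587 and 0.751).

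Of the upstream regulators of the family 16 of 18 were tested and 0 were called, with 6 positive and 10 negative differences and a median of -0.11. Stat5a, a transcription factor downstream of FLT3-ITD, had means of 9.74 ± 0.26 for wild type and 9.30 ± 0.17 for FLT3-ITD (SD, n = 4 each), a difference of -0.44 ± 0.17 (limma adjusted p = 0.484). Pim1, a kinase that phosphorylates BAD and is itself a STAT5 target, read 10.69 to 10.94 in wild type and 10.98 to 11.12 in FLT3-ITD, without overlap, a difference of 0.25 ± 0.12 (limma adjusted p = 0.589). Foxo3, the FOXO factor linked to Bcl2l11, gave -0.13 ± 0.18.

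**Figure D4:**
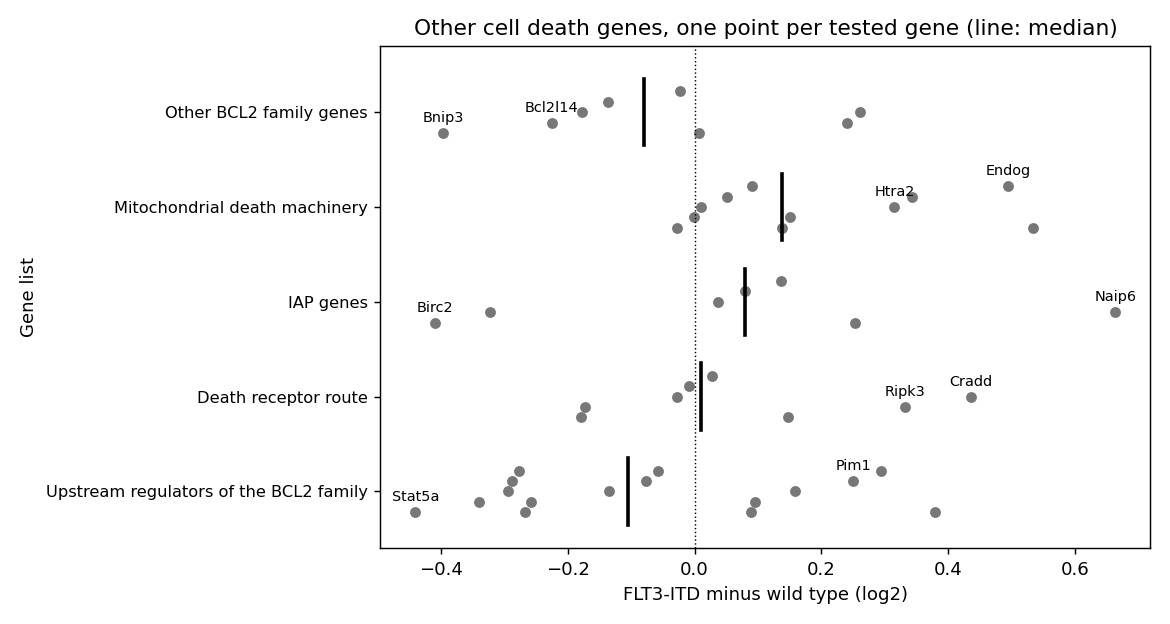
Difference between FLT3-ITD and wild type (log2, horizontal axis) for each tested gene of the other cell death lists, with 1 point per gene and a line at each list's median. Medians lie between -0.11 and 0.14, and the labelled genes are the 2 of smallest p in each list.

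Markers of other cell types moved between the genotypes in the same samples. Of 7 tested dendritic cell markers 5 were called higher, namely Cd74, H2-Aa, H2-Ab1, H2-Eb1 and Irf8. The others tested were Zbtb46, higher without a call (limma adjusted p = 0.130), and Siglech, which differed by -0.023. The summed unlogged signal of that list was 1079 to 1279 in wild type and 7943 to 15739 in FLT3-ITD. In FLT3-ITD most of this sum came from Cd74, H2-Aa, H2-Ab1 and H2-Eb1, so it largely repeats their calls. Of 4 tested erythroid markers 3 were called lower, with a sum of 1764 to 2087 in wild type and 419 to 684 in FLT3-ITD. The other erythroid marker tested, Klf1, differed by -0.027. Of 3 tested monocyte and macrophage markers 1 was called higher (550 to 660 against 1129 to 1823). The 6 tested mature neutrophil markers were all lower in FLT3-ITD without a call, with a median difference of -1.59 (1689 to 7910 against 455 to 4615). Of these, 3 had an unadjusted limma p under 0.05, against 9.05% of all tested genes. None was called among 4 B cell markers (463 to 541 against 444 to 540), 3 T and NK cell markers (557 to 655 against 665 to 833) and 2 megakaryocyte markers (399 to 661 against 384 to 422). The B cell genes Cd79a, Ms4a1, Cd22 and Ebf1 and the T cell genes Cd3e, Cd3d and Cd3g lay below the array median on every array. Of the sorting and progenitor genes, Cd48 was called higher, at 9.92 ± 0.15 and 10.98 ± 0.11 (SD, n = 4 each; limma adjusted p = 0.0132), Kit read 9.61 ± 0.23 and 9.14 ± 0.25, Slamf1, which encodes CD150, lay below the array median on every array, and the Sca-1 gene Ly6a was left unanalysed. Whether these markers reflect other cells in the samples was not tested, nor was the part of such cells in the Bcl2, Bcl2l11 and Bak1 values.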

How the data were processed

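Gene expression was measured on arrays in 4 wild type and 4 FLT3-ITD samples. Per the labels' protocols, Trizol served for RNA extraction. The authors deposited log2 values for each probe set, made with RMA (version not stated) per the submitters' processing notes. Precision is limited by the number of arrays. Whether replicates are separate mice is not stated, so the p-values speak only to the scatter among these 8 samples, possibly technical.

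The table held 45101 probe sets, 64 of them controls; the 2016 annotation gave 1 gene to 34945, several to 932 and none to 9160. Symbols were updated through Entrez IDs for 34741. Probe sets with exactly 1 gene, higher than the median of 4 or more arrays, were tested across all 19211 such probe sets with limma 3.58.1 in R 4.3.3, without covariates, with Benjamini-Hochberg adjustment. Genes outside the family were represented by the probe set whose mean was highest. Single values had an exact two-sided permutation test, whose smallest p is 0.0286. Figures used matplotlib 3.10.9. On simulated data with 200 of the 19211 probe sets changed, there was 1 false call.

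The members, the gene lists (other BCL2 family, mitochondrial death machinery, IAP, death receptor route, upstream regulators, cell type markers) and the tests were chosen with earlier results of these data known. From each cell death list the text names up to 4 called genes or, where none passed, the 2 of smallest p. Cell type markers are given as lists, with single genes only beside a result. Other genes were named after their values were seen. Alternatives covered normalization, filter, probe set choice, variance model, replicate numbers, the 037 samples and leaving out each sample.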

Additional observations from a re-analysis of the deposited data

Results flagged for a closer look

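In 68 groups of 4 values (each genotype of each member probe set), 9 had a sample set apart by a gap wide for the group's own range. The gap itself can be small. Chance alone produces this in about 1 of 20 groups if values are normally distributed and groups independent. Probe sets of 1 gene are not independent, so the count is not shown to exceed chance. FLT3-ITD replicate 037 was the highest for Bcl2 1422938_at at 12.59, the next being 11.89, and the lowest for Mcl1 1437527_x_at at 11.16, the next being 11.43. FLT3-ITD replicate 2 was the lowest for Bcl2l1 1420887_a_at at 5.48. Wild type replicate 2 was the lowest for Bcl2l2 1430454_x_at at 6.02 and the highest for Bid 1447873_x_at at 4.49. Among the other Mcl1 probe sets, wild type replicate 037 was the highest for 1456243_x_at at 11.32, the next being 11.25. Wild type replicate 3 was the highest for 1456381_x_at at 10.91, the next being 10.82. Wild type replicate 1 was the lowest for 1416881_at at 10.31, the next being 10.63. Wild type replicate 3 was the lowest for Bad 1416582_a_at at 8.72.

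A signal also appeared in a probe set outside the comparison. The A1 genes Bcl2a1a, Bcl2a1b and Bcl2a1d, near-identical pro-survival members of the BCL2 family found in myeloid cells, share probe set 1419004_s_at and cannot be told apart by it. It read 5.95, 6.29, 5.81 and 5.75 in wild type replicates 1, 2, 3 and 037, and 8.56, 8.44, 7.60 and 6.50 in FLT3-ITD. Each FLT3-ITD array was above each wild type array, with FLT3-ITD replicate 037 closest to wild type. The probe set passed the filter through the 4 FLT3-ITD arrays and wild type replicate 2, so it was tested because it is high in FLT3-ITD. The means of 5.95 ± 0.24 and 7.78 ± 0.95 (SD, n = 4 each) differed by 1.83 ± 0.42, which is 3.55-fold. With probe sets of several genes or none added, which tested 22938, the limma adjusted p was 0.159 (exact permutation p = 0.0286, the smallest possible). Without FLT3-ITD replicate 037 the difference was 2.25 with a limma adjusted p of 0.0177. Leaving out any other sample gave 1.56 to 1.94 with adjusted p from 0.252 to 0.351. The other 2 A1 probe sets read 2.51 to 3.09 over all arrays. In the same FLT3-ITD samples 5 of 7 tested dendritic cell markers were called higher. Of 3 tested monocyte and macrophage markers 1 was called higher, Ccr2. The part of such cells in this signal was not tested.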

How the results depend on the processing

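Of the 28 tested family probe sets, 0 were called under each alternative that kept all samples, and leaving out single samples gave 0 to 1, the call being that of Bcl2 1443837_x_at without wild type replicate 037. With both 037 samples left out, an alternative added after seeing the data, 1 was called, the same probe set. Over all probe sets 80 were called, 136 with array weights, 41 without the 037 samples and 39 to 73 on leaving out single samples; the count was 40 without wild type replicate 2, 39 without 3 and 49 without 037, and 45 without FLT3-ITD replicate 2 and 47 without 3. With the replicate numbers as a block, 29 were called and no family probe set. The deviations of samples with the same number correlated at 0.026 to 0.094, against -0.074 to 0.044 for pairs with different numbers. Not every sample correlated best with its own number. These values do not settle whether samples with the same number were paired.

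The sign turned for differences that were not called under any alternative, small ones except that of Bak1 1418991_at, which was -0.42 with all samples. With array weights these were Bcl2l1 1426191_a_at (0.14), Bcl2l2 1430454_x_at (0.14), Bcl2l11 1456005_a_at (0.052) and 1435448_at (-0.032), Bad 1416582_a_at (-0.058) and Bmf 1458325_x_at (0.058). With samples 1 and 037 averaged the same 6 gave 0.13, 0.091, 0.040, -0.038, -0.028 and 0.051, and Bad 1416583_at 0.0013. With array medians subtracted, Bcl2l2 1430454_x_at gave 0.011 and Mcl1 1416881_at 0.012. As means over a gene's probe sets, Bad gave -0.043 and Bmf 0.043. Without the 037 samples, Bcl2l1 1426191_a_at gave 0.23, Bcl2l2 1430454_x_at 0.093, Mcl1 1416881_at 0.16, Bcl2l11 1435448_at -0.086, Bak1 1418991_at 0.042, Bid 1417045_at -0.070, Bad 1416582_a_at -0.037 and Bmf 1458325_x_at 0.0098. Leaving out single samples gave -0.19 to 0.20 for Bcl2l1 1426191_a_at, -0.17 to 0.069 and -0.041 to 0.33 for Bcl2l2 1430454_x_at and 1451029_at, -0.21 to 0.13 for Mcl1 1416881_at, -0.25 to 0.12 and -0.12 to 0.13 for Bcl2l11 1456005_a_at and 1435448_at, -0.71 to 0.011 for Bak1 1418991_at, -0.061 to 0.24 for Bid 1448560_at, -0.054 to 0.083 and -0.22 to 0.10 for Bad 1416582_a_at and 1416583_at, and -0.10 to 0.057 for Bmf 1458325_x_at. The cause was not tested. Signal over background was not examined.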
